A study of Mus musculus with 23 samples.

Results

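Gastrocnemius muscle of adult male C57BL/6J mice that ran high-intensity intermittent training (HIIT) was compared with the same muscle of adult sedentary mice. The comparison uses 8 of the 23 arrays of the series, chosen by title alone: 4 adult HIIT arrays and 4 adult sedentary arrays, all on 1 slide. Each array is an Agilent 1-colour mouse gene expression array hybridised with Cy3-labelled RNA. The mice were 5 months old when training began and are labelled 6 months at sampling. HIIT mice ran daily for 4 weeks on a treadmill, each session being 3 runs of 2 min at 27 m per min with 1 min at 5 m per min between runs. Sedentary mice were placed on the stationary treadmill each day, and every animal rested for 12 h before the muscle was taken. For reference, 4 old HIIT and 4 old sedentary arrays (mice 24 months old at the start, labelled 25 months) and 3 adult arrays of moderate-intensity continuous training (MICT, 1 daily run of 45 min at 13 m per min) were read from the same series. Of 9 mice trained per group, 4 per group went to arrays. The labels number the arrays but do not say whether RNA was pooled, so p-values measure the spread between arrays. For each gene that spread is pooled over all 6 groups of the 23 arrays, old and MICT groups included. A standard error (SE) can therefore exceed or fall below the scatter of the 8 arrays compared.

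Endurance-type training is known to push muscle fibres toward a slower, more oxidative character. Slow-twitch fibres carry their own myosin, troponin and calcium pump isoforms and burn fat in abundant mitochondria, whereas fast-twitch fibres use other isoforms and rely more on glycogen. PGC-1alpha, encoded by Ppargc1a, together with the estrogen-related receptors and the PPAR nuclear receptors, is the best known switch for mitochondrial and fat-burning genes in trained muscle. The gastrocnemius is a mixed muscle with mostly fast fibres and a slower inner region. In bulk tissue, fewer fibres of a type and less RNA per fibre cannot be told apart.

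No gene passed the test in this comparison. Of 23708 features tested, 0 (0%) had an adjusted p under 0.05 by limma with Benjamini-Hochberg adjustment, and the smallest adjusted p was 0.474. At an unadjusted p under 0.05, 508 features (2.14%) were higher and 681 (2.87%) lower in HIIT muscle. In 431 features (1.82%) every HIIT array lay above every sedentary array, and in 650 (2.74%) every HIIT array lay below. With the median of each array as the scale, in place of its 75th percentile, these counts were 244 and 1061, and in the values of the deposited series matrix 175 and 1208, so the balance of higher and lower features depends on scaling. All values below are log2 signal minus the array's 75th percentile, and all differences are HIIT minus sedentary on that log2 scale, where 1 is a doubling. The median difference over all features was 0.0029 and the median standard error was 0.221.

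Weighting arrays by their reliability (limma's arrayWeights) brought 243 features past the threshold, 105 higher (0.443%) and 138 lower (0.582%), of which 120 did not overlap between groups. That fit gave HIIT 3 a weight of 0.65, sedentary 2 a weight of 0.73 and HIIT 1 a weight of 0.89, against 3.15 for HIIT 2, the largest. None of the other settings tried gave a call in this comparison.

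The arrays were not equally alike within their groups. HIIT 3 lay over 1 log2 unit from the median of the other 3 HIIT arrays in 1987 features (8.38%), and sedentary 2 did so in 1593 features (6.72%) of its own group. The remaining 6 arrays ranged from 680 to 1389 features. A score was taken for each list on each array as the median over its tested members of the level minus the sedentary mean. On the keratinocyte list, markers of skin, HIIT 3 scored 6.76 and HIIT 4 scored 2.65, whereas the other 6 arrays lay between -0.13 and 0.11. Lor, which encodes the skin barrier protein loricrin, was at 6.75 on HIIT 3 and 2.62 on HIIT 4, and between -4.60 and -3.87 on the other 6 arrays. It was well above background on 2 of 4 HIIT and 1 of 4 sedentary arrays.

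On the adipocyte list HIIT 3 scored 2.94, the other HIIT arrays 0.12 to 0.77 and the sedentary arrays -0.31 to 0.21. Adipoq, the fat hormone adiponectin, was at 2.14, 2.68, 4.97 and 2.68 on HIIT 1 to 4 and at 2.08, 1.19, 2.17 and 2.07 on sedentary 1 to 4. The tendon list scored 0.23 to 1.02 on HIIT arrays and -0.47 to 0.36 on sedentary arrays, with 12 of 12 members positive and a median difference of 0.50. Sedentary 2 had the highest cell cycle score, 1.54, where the other 7 arrays lay between -0.63 and 0.60. The muscle fibre list, which checks the tissue, stayed between -0.38 and 0.24 on all 8 arrays, and its fast-fibre members Actn3 and Myh4 were at 8.65 to 9.62 and 9.28 to 10.10. HIIT arrays lay in the second row of the slide and sedentary arrays in the first, so row and group cannot be told apart.

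**Figure D1:**
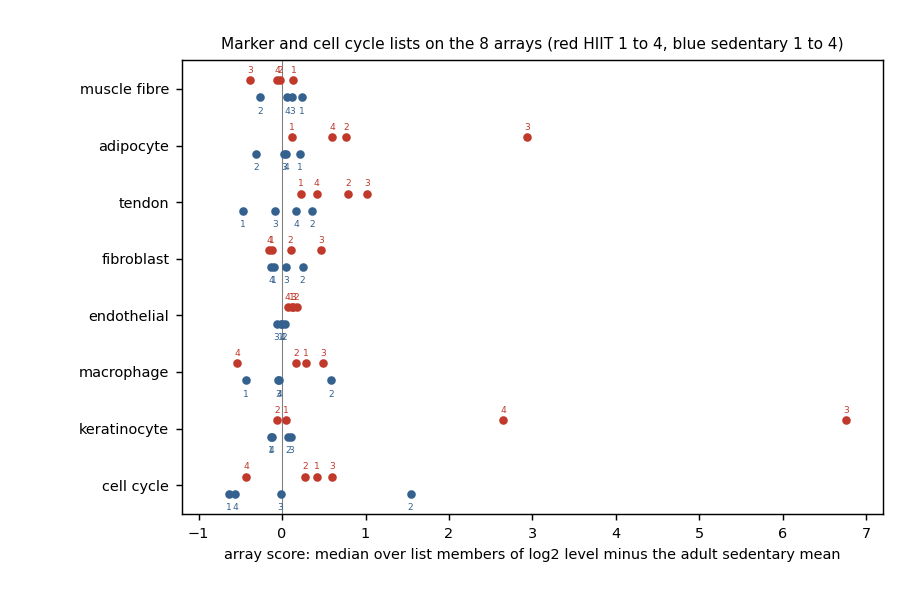
Scores of 7 marker lists and the cell cycle list on each of the 8 arrays, as the median over list members of the log2 level minus the adult sedentary mean (x axis); red points are HIIT 1 to 4, blue points sedentary 1 to 4, with the array number beside each. HIIT 3 stands at 6.76 on the keratinocyte list and 2.94 on the adipocyte list, HIIT 4 at 2.65 on the keratinocyte list, and sedentary 2 at 1.54 on the cell cycle list.

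Faults on the array surface were also measured. On sedentary 3, 36 bright probes lay over 1 log2 unit below all other 22 arrays, and their 36 spots all fell in rows 157 to 213 and columns 79 to 95 of an array of 384 rows and 164 columns. The 240 bright probes in that rectangle, widened by 5 spots, deviated by a median of -0.95 from the other arrays, against 0.08 elsewhere. On HIIT 3, 27 probes were low in the same way, and 27 of their 28 spots lay in a streak between columns 68 and 84. None of the other 6 arrays had such a probe. Where a gene described below was measured in that rectangle, its difference without sedentary 3 is given.

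Slow-twitch genes had the highest list median of the 23 pathway lists, so the sequences upstream of a few fibre type genes are shown here: slow calsequestrin Casq2, the slow myosin gene Myh7b, and for contrast the fast myosin gene Myh4. The sequences are the 250 bases before the annotated start from RefSeq on GRCm38.p6, 5′ to 3′ on the plus strand of the gene. Capitals mark the MEF2 consensus in Casq2 and Myh4 and the estrogen-related receptor element TCAAGGTCA, read on the opposite strand, in Myh7b.
Casq2, chr3:102086165-102086414: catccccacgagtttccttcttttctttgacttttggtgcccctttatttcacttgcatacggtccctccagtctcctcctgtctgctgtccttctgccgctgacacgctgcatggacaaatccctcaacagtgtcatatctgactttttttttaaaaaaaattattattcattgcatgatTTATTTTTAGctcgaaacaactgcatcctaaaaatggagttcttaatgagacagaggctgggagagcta
Myh7b, chr2:155610993-155611242: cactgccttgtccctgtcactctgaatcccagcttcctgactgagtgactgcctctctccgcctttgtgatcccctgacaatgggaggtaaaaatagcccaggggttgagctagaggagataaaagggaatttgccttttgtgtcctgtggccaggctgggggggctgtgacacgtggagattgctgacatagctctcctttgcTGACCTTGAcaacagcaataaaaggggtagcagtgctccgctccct
Myh4, chr11:67237562-67237811: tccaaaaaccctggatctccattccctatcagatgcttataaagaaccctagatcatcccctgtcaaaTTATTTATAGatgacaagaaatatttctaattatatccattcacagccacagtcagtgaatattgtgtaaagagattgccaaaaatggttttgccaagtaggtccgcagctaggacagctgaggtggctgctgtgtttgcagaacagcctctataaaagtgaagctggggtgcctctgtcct
Promoters were found for 14 of 16 slow-twitch and 11 of 16 fast-twitch genes, taking the first listed start of each gene and searching both strands. The MEF2 consensus occurred in 2 slow-twitch promoters (Casq2 and Myoz2) and 3 fast-twitch ones (Myh1, Myh4 and Pvalb), and in 2.92% of all 32851 promoters of this length. The estrogen-related receptor element occurred in 2 slow-twitch promoters (Myh7b and Tpm3), in 0 fast-twitch ones and in 0.387% of all promoters. The M-CAT letters CATTCCT occurred in 1 slow-twitch (Myl3) and 2 fast-twitch promoters (Tpm1 and Mybpc2), and in 4.51% of all. These are matches of letters and say nothing about binding.

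All 16 slow-twitch genes were positive in HIIT muscle, with differences from 0.50 to 1.81 and a median of 1.09, and 0 of 16 passed the test. The groups overlapped for each of the 16. Leaving out HIIT 1 gave a median of 1.64, leaving out HIIT 3 gave 16 of 16 positive with a median of 1.09, and leaving out HIIT 3 and 4 together gave 15 of 16 and a median of 0.73.

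Tnni1, slow troponin I of the thin filament, was at 3.66, 6.96, 6.17 and 7.09 on HIIT 1 to 4 and at 2.64, 6.08, 3.44 and 4.47 on sedentary 1 to 4. HIIT 2, 3 and 4 stood above sedentary 1, 3 and 4, but HIIT 1 lay among the low arrays and sedentary 2 among the high ones. The difference was 1.81 (SE 0.89, 95% interval -0.04 to 3.65), with an unadjusted p of 0.0541 and an adjusted p of 0.929 by limma. Myh7, the slow myosin heavy chain itself, was at 6.71, 9.68, 8.89 and 9.70 on HIIT 1 to 4 and at 6.39, 9.01, 7.44 and 7.67 on sedentary 1 to 4. It split the same way, with a difference of 1.12 (SE 0.87, interval -0.69 to 2.92).
The slow calcium pump Atp2a2 was at 4.16, 6.91, 6.20 and 7.17 on HIIT 1 to 4 and at 3.75, 6.26, 4.28 and 4.64 on sedentary 1 to 4, a difference of 1.38. Slow troponin C, Tnnc1, differed by 1.67, slow troponin T, Tnnt1, by 1.06, and the ventricular light chain Myl2, also used by slow fibres, by 1.02. Sarcolipin, Sln, a brake on the calcium pump, was at 2.17 on HIIT 1 against 5.30 to 5.87 on the other HIIT arrays, and differed by 0.94. Slow tropomyosin, Tpm3, had the smallest difference of the list, 0.50.

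Of the 16, 3 members had an unadjusted p under 0.05. Csrp3, the Z-disc stretch sensor muscle LIM protein, was at 6.83, 8.03, 6.64 and 6.58 on HIIT 1 to 4 and at 4.61, 7.81, 3.69 and 5.49 on sedentary 1 to 4. Each HIIT array lay above each sedentary array except sedentary 2, and the difference was 1.62 (SE 0.70, adjusted p 0.929 by limma). Csrp3 lies in the low rectangle of sedentary 3, and its difference was 1.05 without that array. Ankrd2, a stretch-responsive ankyrin repeat protein of slow fibres, was at 7.37, 8.53, 7.18 and 7.54 on HIIT 1 to 4 and at 5.72, 8.05, 5.48 and 6.19 on sedentary 1 to 4. Its difference was 1.29 (SE 0.59), with the same arrangement of arrays as Csrp3. Casq2, whose promoter is printed above, was at 1.95, 3.41, 2.75 and 3.80 on HIIT 1 to 4 and at 1.30, 3.06, 0.70 and 1.46 on sedentary 1 to 4, a difference of 1.35 (SE 0.60).

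Fast-twitch genes stood slightly lower in HIIT muscle. Of 16 members, 1 was positive and 15 negative, with a median of -0.19 and a range of -0.52 to 0.14, and without HIIT 3 the median was -0.06 with 5 positive. It was -0.09 without sedentary 1 and -0.12 without sedentary 3. Mylk2, the skeletal myosin light chain kinase, was at 6.99, 6.69, 6.33 and 6.15 on HIIT 1 to 4 and at 7.03, 6.77, 7.06 and 7.37 on sedentary 1 to 4, a difference of -0.52 (SE 0.25). Actn3, the fast-fibre alpha-actinin, differed by -0.37 and fast troponin I, Tnni2, by -0.33. The fast myosins Myh4, Myh1 and Myh2 differed by -0.15, -0.03 and 0.14, each by less than its standard error. The sign of Myh1 turned under normexp background (0.02) and quantile normalization (0.05). Excitation-contraction coupling genes, which link the nerve signal to calcium release, were positive in 5 of 20, with a median of -0.18 that ranged from -0.09 without sedentary 1 through -0.12 without HIIT 3 to -0.29 without sedentary 2. Among them Cacna2d1, a calcium channel subunit, was at 5.61, 5.16, 5.22 and 5.37 on HIIT 1 to 4 and at 5.87, 5.38, 5.84 and 5.78 on sedentary 1 to 4, a difference of -0.38 (SE 0.15). Jph1, junctophilin, which holds the triad membranes together, differed by -0.48 (SE 0.20).

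**Figure D2:**
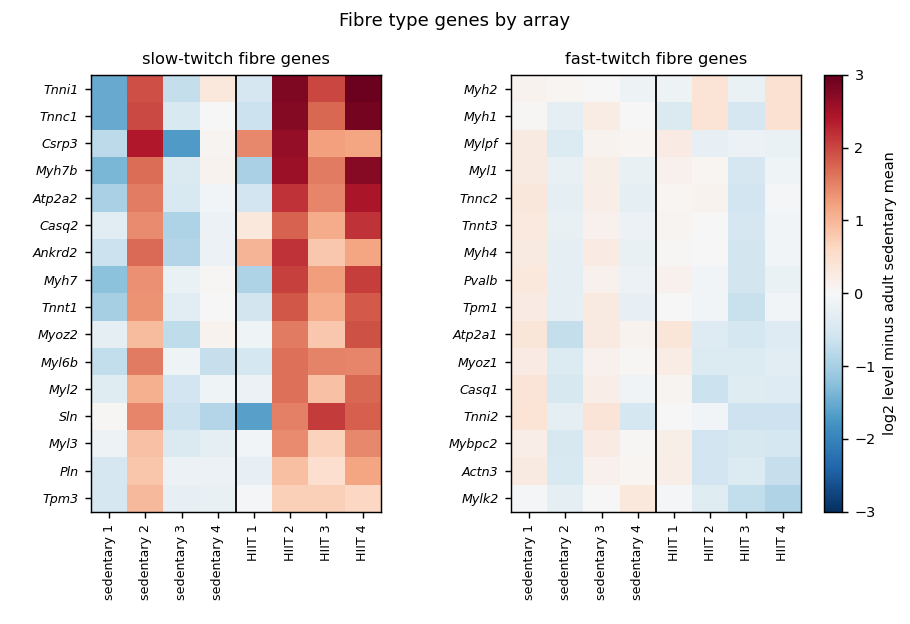
Log2 level of each slow-twitch gene (left) and fast-twitch gene (right) on the 8 arrays minus its adult sedentary mean, as colour; columns are arrays and rows are genes ordered by their difference. The slow-twitch block is high on sedentary 2 and on HIIT 2, 3 and 4 and low on sedentary 1 for most genes and on HIIT 1 for most, while fast-twitch genes vary much less.

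Genes of fatty acid uptake and oxidation stood slightly higher in HIIT muscle: 32 of 33 were positive, with a median of 0.25 and a range of -0.02 to 0.61. The median was 0.102 without HIIT 4, the array with the highest score on this list, and 0.329 without HIIT 3. For 3 of the 33 every HIIT array lay above every sedentary array, namely Acsl1 and the fat-droplet lipases Lipe and Pnpla2, and 0 passed the test. Over all features 1.82% lay above in this way. Lipe, hormone-sensitive lipase, differed by 0.61 (0.40 without HIIT 3), and Pnpla2, the lipase ATGL, by 0.41. Lipe is also in the adipocyte marker list. The list's scores were 0.01, 0.31, 0.03 and 0.62 on HIIT 1 to 4 and 0.13, -0.07, -0.13 and 0.08 on sedentary 1 to 4, so HIIT 2 and 4 stood out and HIIT 1 and 3 lay within the sedentary range. With the slow-twitch and adipocyte scores of each array as covariates, 33 of 33 members were positive with a median of 0.24. Under the same covariates 6 of the 16 slow-twitch genes were positive with a median of -0.07, as the score is built from those genes.

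Acsl1, the main muscle enzyme that activates fatty acids with coenzyme A, was at 2.74, 3.095, 2.83 and 3.28 on HIIT 1 to 4 and at 2.43, 2.42, 2.13 and 2.61 on sedentary 1 to 4. The groups did not overlap, and the difference was 0.59 (SE 0.20, interval 0.18 to 1.00), a fold of 1.504, with an unadjusted p of 0.00683 and an adjusted p of 0.929 by limma. Cd36, the fatty acid transporter of the sarcolemma, was at 4.01, 4.78, 4.49 and 5.01 on HIIT 1 to 4 and at 4.08, 4.15, 3.85 and 4.09 on sedentary 1 to 4. HIIT 1 lay within the sedentary range and the other 3 above it, a difference of 0.53 (SE 0.24). Slc27a1, a fatty acid transport protein, differed by 0.45. Acadm, the medium-chain acyl-CoA dehydrogenase, differed by 0.61, but its spot lies in the low rectangle of sedentary 3, and without that array the difference was 0.29.

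The list of PPAR-responsive and fasting-type genes was positive in 18 of 20, with a median of 0.35, or 0.19 without sedentary 3, and 4 members did not overlap, against 1.82% of all features. All 4 of these coat lipid droplets or control fat storage. Plin2 was at 2.12, 2.45, 3.20 and 2.16 on HIIT 1 to 4 and at 1.37, 2.04, 1.57 and 1.73 on sedentary 1 to 4, a difference of 0.80 (SE 0.30) that was 0.56 without HIIT 3. Plin5, which ties droplets to mitochondria in oxidative muscle, was at 4.14, 4.96, 4.23 and 5.53 on HIIT 1 to 4 and at 3.88, 3.92, 3.08 and 3.85 on sedentary 1 to 4, a difference of 1.03 (SE 0.56) that was 1.20 without HIIT 3. Plin4 differed by 0.60 and Pparg, the fat cell master regulator, by 0.65, the latter 0.31 without HIIT 3. Cidea, a droplet-fusing protein of fat cells, was at 0.39, 2.42, 3.56 and 2.97 on HIIT 1 to 4 and at 0.23, 1.65, 0.48 and 0.59 on sedentary 1 to 4. The adipocyte scores given above move with these genes on HIIT 3, and Pparg is itself in the adipocyte marker list. With the slow-twitch and adipocyte scores as covariates, 17 of 20 members of the PPAR list were positive, with a median of 0.34. As the adipocyte score is built from marker genes such as Pparg, that fit cannot tell fat cells from other sources of these transcripts. The part of fat cells in the differences was not tested. Pdk4, the fasting-induced kinase that shuts off pyruvate oxidation, was at 5.82, 7.26, 5.85 and 6.33 against 6.74, 6.23, 5.33 and 5.61, and differed by 0.34 (SE 0.76). Ucp3, an uncoupling protein homologue induced by fatty acids, differed by 0.06 (SE 0.76).

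Mitochondrial fuel genes lay in the same direction by smaller amounts. The tricarboxylic acid cycle and pyruvate dehydrogenase list was positive in 27 of 28, with a median of 0.20, and that median was 0.11 without HIIT 4 and 0.24 without HIIT 3. In this list 3 members, Dlst, Sdhc and Dlat, did not overlap, against 1.82% of all features. Dlat, the E2 subunit of pyruvate dehydrogenase, differed by 0.23 (SE 0.13). Complexes III to V were positive in 33 of 38 with a median of 0.10, and complex I in 26 of 35 with a median of 0.07. Without HIIT 4 these medians were 0.046 and 0.007, and without HIIT 3 they were 0.157 and 0.143. Leaving out sedentary 4 gave 0.06 and 0.038, and for complex I leaving out HIIT 1, sedentary 1 or sedentary 2 gave 0.038, 0.133 and 0.016. Under median scaling the counts for complexes III to V and complex I were 27 of 38 and 19 of 35, with medians of 0.04 and 0.01.

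Dlst, the E2 subunit of 2-oxoglutarate dehydrogenase, was at 5.55, 5.67, 5.30 and 5.85 on HIIT 1 to 4 and at 5.28, 5.12, 5.29 and 5.25 on sedentary 1 to 4. The groups did not overlap, by a narrow margin at HIIT 3, and the difference was 0.36 (SE 0.14). Pdha1, the E1 alpha subunit of pyruvate dehydrogenase, was at 5.89, 5.88, 5.84 and 6.18 on HIIT 1 to 4 and at 5.72, 5.45, 5.85 and 5.47 on sedentary 1 to 4, a difference of 0.33 (SE 0.13). Sdhc, a membrane anchor of succinate dehydrogenase, differed by 0.22 with no overlap. Its partner Sdhd differed by 0.76, which was 0.22 without sedentary 3, where its spot lies in the low rectangle. Cs, citrate synthase, often measured as an index of mitochondrial content, was at 8.70, 8.72, 8.54 and 8.94 on HIIT 1 to 4 and at 8.80, 8.46, 8.59 and 8.52 on sedentary 1 to 4. Its difference, 0.13 (SE 0.13, interval -0.14 to 0.40), was within the spread of the arrays.

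In the respiratory chain, Ndufs1, the large iron-sulphur subunit of complex I, was at 7.66, 7.70, 7.48 and 7.94 on HIIT 1 to 4 and at 7.48, 7.26, 7.604 and 7.35 on sedentary 1 to 4, a difference of 0.27 (SE 0.12). The complex I genes Ndufa10 and Ndufb5 differed by 0.27 and 0.23 without overlap. Ndufc2 differed by 0.51, and by 0.12 without sedentary 3, in whose low rectangle it lies. Uqcrc1, a core protein of complex III, was at 6.68, 6.41, 6.16 and 6.59 on HIIT 1 to 4 and at 6.21, 5.86, 6.06 and 6.07 on sedentary 1 to 4, a difference of 0.41 (SE 0.16). Cox8a of complex IV differed by 0.17 without overlap.

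The list of mitochondrial biogenesis and dynamics regulators was positive in 18 of 27 with a median of 0.10, or 0.048 without HIIT 4 and 0.054 without sedentary 2. Of its members Esrra, Perm1 and Sirt3, 3 of 27, did not overlap, against 1.82% of all features. Ppargc1a was at 3.78, 3.52, 3.69 and 3.80 on HIIT 1 to 4 and at 3.30, 3.07, 3.76 and 3.14 on sedentary 1 to 4. Sedentary 3 reached the HIIT level, and the difference was 0.38 (SE 0.20, interval -0.03 to 0.79). Esrra, the estrogen-related receptor alpha with which PGC-1alpha works, was at 6.22, 6.26, 6.19 and 6.50 on HIIT 1 to 4 and at 6.04, 5.89, 6.11 and 5.91 on sedentary 1 to 4, a difference of 0.31 (SE 0.13). Perm1, a muscle-specific partner of both, was at 5.46, 5.77, 5.31 and 6.08 on HIIT 1 to 4 and at 5.14, 4.97, 5.13 and 5.202 on sedentary 1 to 4, a difference of 0.54 (SE 0.28). Sirt3, the mitochondrial deacetylase, differed by 0.33. In the opposite direction, Prkag3, the AMP-kinase gamma subunit of fast glycolytic fibres, was at 2.34, 0.83, 1.503 and 0.99 on HIIT 1 to 4 and at 3.18, 1.92, 2.92 and 2.79 on sedentary 1 to 4. Only HIIT 1 overlapped the sedentary arrays, and the difference was -1.28 (SE 0.42), with an unadjusted p of 0.00615 and an adjusted p of 0.929 by limma. With array weights it passed, at an adjusted p of 0.0312 by limma. HIIT 2, the array with the largest weight, was the lowest for this gene, and HIIT 1 had a weight of 0.89.

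**Figure D3:**
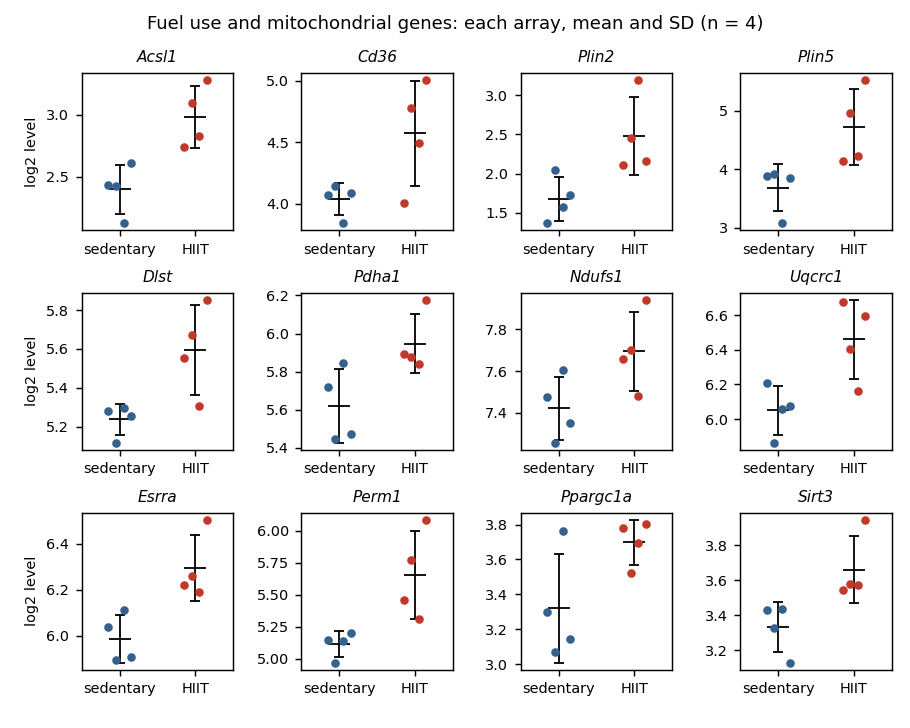
Log2 level of 12 fuel-use, respiratory chain and regulator genes on each array (points; blue sedentary, red HIIT), with the group mean and SD as bars (n = 4 per group). Acsl1, Plin2, Plin5, Dlst, Esrra, Perm1 and Sirt3 do not overlap between groups, while Cd36, Pdha1, Ndufs1, Uqcrc1 and Ppargc1a do.

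Carbohydrate genes showed no common direction. In the list of glycolysis, lactate and glycogen genes 11 of 32 were positive with a median of -0.06, and 17 were positive without HIIT 3. Leaving out single arrays gave medians from -0.151 to 0.019, and all but HIIT 4 moved it by over 1.5 times or turned its sign. Gbe1, the glycogen branching enzyme, was at 4.85, 5.42, 5.30 and 5.76 on HIIT 1 to 4 and at 4.57, 5.00, 4.55 and 4.50 on sedentary 1 to 4, a difference of 0.68 (SE 0.26), and with array weights its adjusted p was 0.0463. Hk2, hexokinase II, differed by 0.31 (SE 0.24). Slc2a4, the insulin-responsive glucose transporter, differed by -0.04 (SE 0.13, interval -0.30 to 0.23), and by 0.027 without sedentary 3, in whose rectangle it lies. Ldha, the fast-muscle lactate dehydrogenase subunit, differed by -0.04 (SE 0.19). Both turned sign under settings given in the closing section. Ldhb, the oxidative subunit, differed by 0.50 (SE 0.48).

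Blood vessel genes leaned higher. The vascular growth list was positive in 20 of 22 with a median of 0.27, and 3 members, Dll4, Nrp1 and Epas1, did not overlap, against 1.82% of all features. Epas1, the hypoxia factor HIF-2alpha, differed by 0.20 (SE 0.14). With the slow-twitch and adipocyte covariates 14 of 22 were positive, with a median of 0.09. Dll4, the Notch ligand of sprouting endothelium, was at -1.38, -2.11, -1.99 and -1.52 on HIIT 1 to 4 and at -2.16, -2.60, -2.41 and -2.17 on sedentary 1 to 4, a difference of 0.58 (SE 0.21). Nrp1, the VEGF co-receptor, was at 0.68, 0.64, 0.45 and 0.48 on HIIT 1 to 4 and at 0.25, 0.23, 0.06 and 0.10 on sedentary 1 to 4, a difference of 0.40 (SE 0.20). Vegfa, the growth factor itself, differed by 0.30 (SE 0.28) at its brightest probe and by 0.04 (SE 0.31) at its other tested probe. Among endothelial markers 8 of 11 were positive with a median of 0.08, or 0.145 without HIIT 3, and Emcn, endomucin of capillary and venous endothelium, differed by 0.36 without overlap.

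Extracellular matrix genes were positive in 33 of 36 with a median of 0.31, which was 0.18 without HIIT 3, 0.15 without sedentary 1 and 0.52 without sedentary 2. With the slow-twitch and adipocyte covariates 26 of 36 were positive, with a median of 0.12. The tendon list had 7 of 12 positive under the same covariates, with a median of 0.13. Postn, the matricellular protein periostin, was at 2.51, 3.498, 3.65 and 1.51 on HIIT 1 to 4 and at -0.55, 4.19, 1.09 and 0.16 on sedentary 1 to 4. Sedentary 2 held the highest value of the 8, and the difference was 1.57 (SE 0.77). The basement membrane genes Lamb1 and Col4a2 differed by 0.35 and 0.53, and the fibrillar collagen gene Col1a1 by 0.37 (SE 0.58). The tendon scores given above move with this list, and their part in it was not tested.

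Among growth signals, 20 of 27 were positive with a median of 0.19, but the 2 with the smallest p were lower. Without HIIT 3, 17 of 27 were positive with a median of 0.13. With the slow-twitch and adipocyte covariates 12 of 27 were positive, with a median of -0.03. Mstn, myostatin, the secreted brake on muscle growth, was at 2.76, 1.48, 2.80 and 2.13 on HIIT 1 to 4 and at 3.52, 2.57, 3.83 and 3.26 on sedentary 1 to 4. HIIT 1 and 3 lay above sedentary 2 and below the other sedentary arrays. The difference was -1.003 (SE 0.44, interval -1.92 to -0.09), a fold of 0.499, with an adjusted p of 0.929 by limma and 0.0471 with array weights. Igfbp5, a binding protein for insulin-like growth factors, was at 5.01, 4.37, 4.96 and 4.54 on HIIT 1 to 4 and at 6.06, 5.28, 5.58 and 5.90 on sedentary 1 to 4. All HIIT arrays lay below all sedentary ones, and the difference was -0.99 (SE 0.46). Bdnf, a neurotrophin also made by contracting muscle, was dim and differed by 0.64 without overlap. The ubiquitin ligases of muscle wasting, Fbxo32 and Trim63, differed by -0.37 (SE 0.62) and -0.10 (SE 0.64). These SEs pool all 6 groups, and the SD of Fbxo32 was 0.184 among adult HIIT and 0.37 among adult sedentary arrays. Myh3, the embryonic myosin of regenerating fibres, was at 1.01, 2.60, 3.84 and 2.85 on HIIT 1 to 4 and at 0.04, 2.60, -0.63 and 0.25 on sedentary 1 to 4, a difference of 2.01 (SE 1.06). It was the highest member of the list of myogenic, denervation and regeneration genes, of which 14 of 24 were positive and 10 negative. The median of that list was 0.061, or -0.012 without HIIT 1 and 0.117 without sedentary 2.

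Immediate early and contraction-induced genes were positive in 16 of 24 with a median of 0.20, or 0.126 without HIIT 2, 0.077 without sedentary 1 and 0.367 without sedentary 2. Atf3, a stress-induced transcription factor, was at 1.39, 2.93, 1.59 and 2.14 on HIIT 1 to 4 and at -0.04, 1.95, 0.77 and 0.49 on sedentary 1 to 4. Only sedentary 2 reached the HIIT range, and the difference was 1.22 (SE 0.40), with an unadjusted p of 0.00613, an adjusted p of 0.929 by limma and 0.0311 with array weights. Fos and Egr1, the classical rapid-response genes, differed by -0.13 (SE 0.43) and -0.16 (SE 0.48), and both signs depended on single arrays. Nr4a1, an orphan receptor induced by contraction, differed by -0.61 with all HIIT arrays below all sedentary arrays. Ankrd1, a stretch-responsive relative of Ankrd2, differed by 1.35 (SE 0.79).

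Clock genes were positive in 8 of 18 with a median of -0.12, or -0.02 without HIIT 2, -0.216 without sedentary 2 and -0.01 without sedentary 3. Per1 and Arntl, core clock genes, differed by 0.51 (SE 0.36) and 0.24 (SE 0.40), and Tef, an output factor, by -0.37 (SE 0.18). The heat shock list was positive in 12 of 19 and negative in 7, with a median of 0.1, or 0.043 without sedentary 1 and 0.174 without sedentary 3. Among small heat shock proteins, Hspb6 was at 9.06, 9.52, 8.83 and 9.48 on HIIT 1 to 4 and at 8.33, 8.76, 8.47 and 8.76 on sedentary 1 to 4, a difference of 0.64 (SE 0.24) without overlap. Hspb7 differed by 1.26, and by 1.06 without sedentary 3, in whose rectangle it lies. Sod2, the mitochondrial superoxide dismutase, differed by 0.42 and by 0.25 without sedentary 3, and the secreted form Sod3 by 0.86 and 0.49, both also in the rectangle. The antioxidant and stress protein list was positive in 18 of 23 and negative in 5. Its median was 0.085, or 0.041 without HIIT 1 and 0.142 without sedentary 2.

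Hibch, an enzyme of valine breakdown, differed by 0.26 (SE 0.11) without overlap, and its list of ketone and branched-chain amino acid genes was positive in 12 of 15. Interferon and antigen presentation genes were positive in 12 of 24 with a median of -0.01, and in 4 of 24 with a median of -0.20 without HIIT 3. B2m of that list was at 0.66 on HIIT 3 against 5.42 to 5.62 on the other HIIT arrays, and differed by -0.99, or by 0.23 without HIIT 3. It also lies in the low rectangle of sedentary 3, and its difference was -1.28 without that array. The median of this list moved by over 1.5 times, or turned sign, whichever of the 8 arrays was left out.

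**Figure D4:**
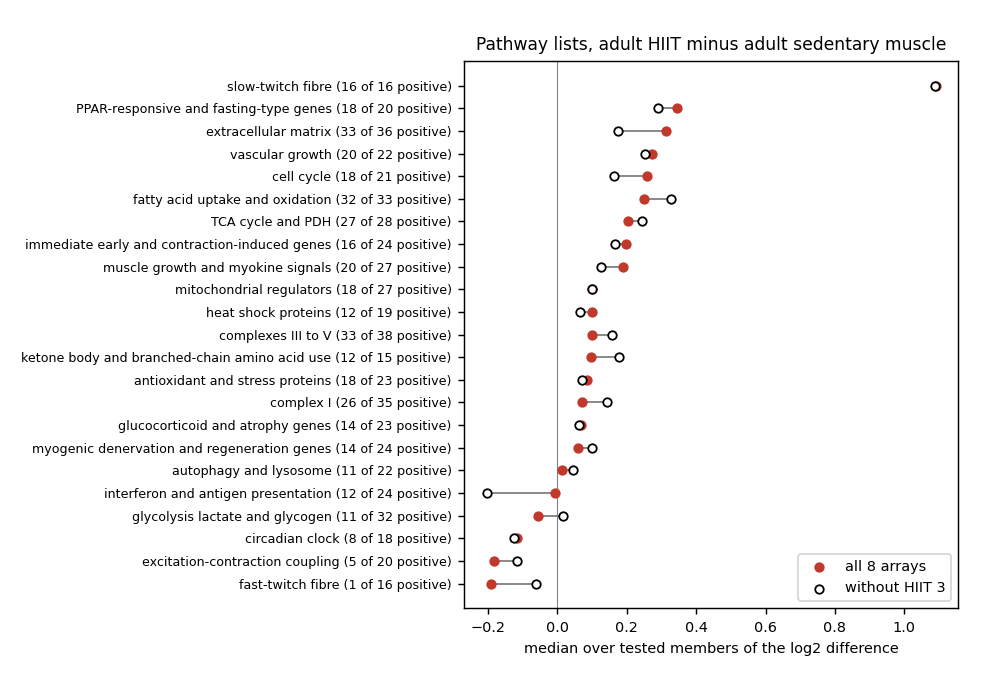
Median over tested members of the log2 difference, adult HIIT minus adult sedentary, for each of 23 pathway lists (y axis, with the count of positive members); red points use all 8 arrays and white points leave out HIIT 3. The slow-twitch list stands at 1.09 in both, the extracellular matrix list moves from 0.31 to 0.18, and the fast-twitch list from -0.19 to -0.06.

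Leading genes were taken among those well above background on all 4 arrays of at least 1 group, the 10 with the smallest p in each direction. Of these 20, Abcb9 was the only one that also belongs to a pathway list, autophagy and lysosome. G0s2, Tmem45b, Ly6g6c, Nccrp1, Gdap1, Htra4 and Gm2176, given below, came from another rule, the largest differences without overlap. Their size and lack of overlap are therefore how they were picked. Abcb9, a lysosomal peptide transporter, was at 3.49, 3.33, 3.52 and 3.64 on HIIT 1 to 4 and at 3.03, 2.92, 2.90 and 3.002 on sedentary 1 to 4. The spread within each group was small, and the difference was 0.535 (SE 0.115), with an unadjusted p of 0.000142 and an adjusted p of 0.842 by limma. Nedd9, a scaffold of focal adhesions, was at -0.65, -0.07, -0.38 and -0.33 on HIIT 1 to 4 and at -1.495, -0.76, -1.55 and -1.62 on sedentary 1 to 4. It did not overlap and differed by 1.00 (SE 0.25, adjusted p 0.889 by limma, 0.0195 with array weights). Uchl1, a deubiquitinase of neurons and slow fibres, was at -0.45, -0.06, -0.33 and 0.11 on HIIT 1 to 4 and at -1.63, -0.48, -1.32 and -1.15 on sedentary 1 to 4. It differed by 0.96 (SE 0.24), and sedentary 2 was again the highest sedentary array.

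G0s2, an inhibitor of the fat lipase ATGL, was at 2.68, 2.40, 3.11 and 3.75 on HIIT 1 to 4 and at 0.79, 2.32, 1.81 and 2.05 on sedentary 1 to 4, a difference of 1.24 (SE 0.36) that was 1.20 without HIIT 3. Mrps35, a mitochondrial ribosomal protein, and Aifm2, a lipid-protecting oxidoreductase, differed by 0.44 and 0.66 without overlap. Mcrip2 and Zfp385a differed by 0.51 and 0.63 without overlap, and Micall1, an endosome protein, by 0.56 with overlap at sedentary 2. Alad, a heme synthesis enzyme, differed by 0.56 at its brightest probe and by -0.24 at its other tested probe. Tmem53 differed by 1.05, and by 0.64 without sedentary 3, in whose rectangle it lies. Tmem45b, Ly6g6c and Nccrp1 had large differences of 1.60, 1.67 and 1.48 without overlap, which were 1.13, 0.68 and 0.54 without HIIT 3. Their unadjusted p by limma was 0.045, 0.122 and 0.21 in the fit without the probes of the sedentary 3 rectangle. All 3 peaked on HIIT 3, the array highest on the keratinocyte list.

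On the lower side, 8430426J06Rik, an uncharacterised transcript, had the smallest p of all features. It was at 0.75, 1.30, 0.87 and 1.32 on HIIT 1 to 4 and at 2.32, 1.83, 2.72 and 1.94 on sedentary 1 to 4. The groups did not overlap, and the difference was -1.14 (SE 0.21), with an adjusted p of 0.474 by limma. Cdkn2a, the locus of the p16 and p19 cell cycle inhibitors, was at -3.61, -3.71, -2.83 and -4.25 on HIIT 1 to 4 and at -1.15, -0.60, -1.41 and -2.55 on sedentary 1 to 4. It was well above background on 3 of 4 HIIT and 4 of 4 sedentary arrays, and differed by -2.18 (SE 0.52, interval -3.26 to -1.09), which was -2.43 without HIIT 3. Pim1, a survival kinase, was at -0.87, -1.43, -1.68 and -1.86 on HIIT 1 to 4 and at -0.38, -0.87, -0.35 and 0.05 on sedentary 1 to 4. HIIT 1 and sedentary 2 lay almost level at the border of the groups, which did not overlap, and the difference was -1.07 (SE 0.28).

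Gdap1, a mitochondrial fission factor linked to nerve disease, was at 1.62, 0.61, 1.21 and 1.01 on HIIT 1 to 4 and at 2.63, 1.85, 2.90 and 2.22 on sedentary 1 to 4, a difference of -1.29 (SE 0.38). Htra4, a serine protease, differed by -1.41 and Prss55, another, by -1.42, both without overlap. Ovgp1, Gm2176, 2310015K22Rik and Pou5f2 differed by -0.85, -1.30, -0.95 and -0.39 without overlap, and Cnbd2 by -0.96 with overlap. Il12a, the p35 subunit of interleukin 12, was well above background on 1 of 4 HIIT and 4 of 4 sedentary arrays, so its difference is not measured on both sides and is not given as a size. Ttbk1, a tau kinase, was well above background on all 4 sedentary and on 0 of 4 HIIT arrays, so it was at least 2.39-fold lower in HIIT muscle. That bound is the sedentary mean against the higher of the dim probe and the lowest detected signal on each HIIT array.

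**Figure D5:**
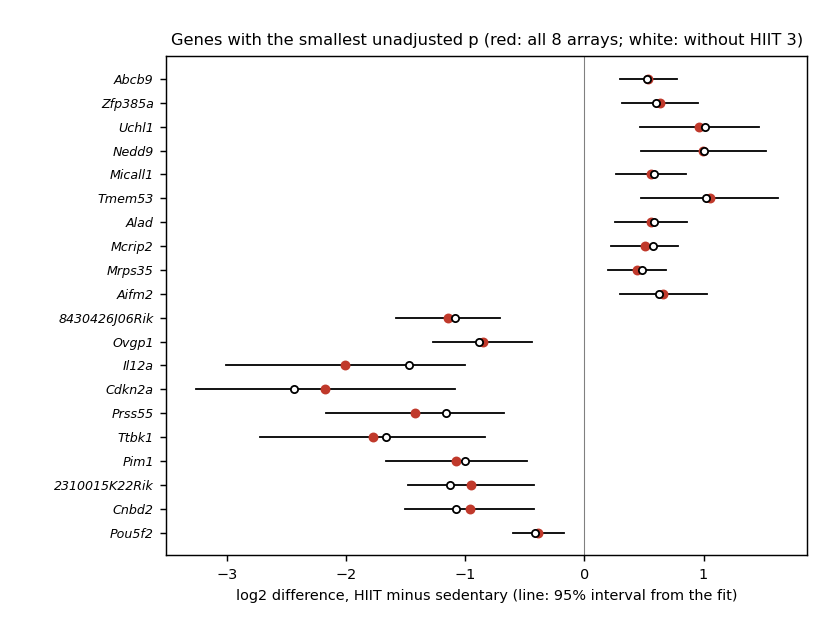
Log2 difference, HIIT minus sedentary, of the 10 higher and 10 lower genes with a symbol and the smallest unadjusted p among those well above background on all 4 arrays of at least 1 group, with the 95% interval from the fit as a line; red points use all 8 arrays, white points leave out HIIT 3. As the genes were picked for small p on these arrays, unadjusted intervals exclude 0 by choice, while 0 of the 20 passed after adjustment. All 20 kept their sign without HIIT 3, in a fit that reuses the other arrays they were picked on. Il12a and Ttbk1 were well above background on 1 and 0 of the 4 HIIT arrays, so the sizes plotted for them are not measured on both sides.

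The same training in old muscle was set beside these values. The difference between the adult and the old response passed the test for 1 of 23708 features (0.00422%) by limma, with 2676 at an unadjusted p under 0.05. That feature is a probe to an unnamed interval on chromosome 4 that differed by -0.07 in adult and by 2.55 in old muscle (adjusted p 0.0495 by limma). The slow-twitch list had a median response of 1.09 in adult and 0.20 in old mice, with 11 of 16 positive in the old. For Csrp3 the response differed by 2.26 between ages (SE 0.99, adjusted p 0.430 by limma), and for Atf3 by 2.02 (SE 0.56, adjusted p 0.299 by limma). Pdk4 responded by 0.34 in adult and 2.70 in old mice, a difference of -2.37 (SE 1.07, adjusted p 0.433 by limma). Fbxo32 responded by -0.37 and 1.81, a difference of -2.18 (SE 0.88, adjusted p 0.413 by limma). Fatty acid genes had medians of 0.25 in adult and 0.45 in old mice, with 31 of 33 positive in the old. The old groups lie on different slides, so slide and training cannot be told apart there.

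Adult HIIT and adult MICT were compared directly. Of 23708 features, 0 (0%) passed the test by limma, and the lowest adjusted p was 0.282. Before adjustment 1845 features had a p under 0.05. Slow-twitch genes had a median of 1.70 in HIIT minus MICT. Against the same sedentary arrays, MICT muscle had a slow-twitch median of -0.74 with 1 of 16 positive. Tnni1 differed by 2.69 between HIIT and MICT (SE 0.96, adjusted p 0.499 by limma). Uchl1 differed by 0.91 (SE 0.26, adjusted p 0.470 by limma) and Ovgp1 by -0.84 (SE 0.22, adjusted p 0.405 by limma). Fatty acid and tricarboxylic acid cycle genes had medians of 0.01 and 0.05 in MICT minus sedentary, with 19 of 33 and 21 of 28 positive. Adult MICT lies on another slide, so slide and regimen cannot be told apart.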

How the data were processed

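Members and lists were chosen with earlier results of these data known. Values are intensities deposited by the authors: per the file headers, Agilent Feature Extraction 12.0.3.1 subtracted background and detrended within each array (annotation mm9). The scores of the deposited series table, on an unstated scale, served as an alternative. Flagged spots (283 probes) were dropped, spots of a probe averaged, and log2 signal centred on each array's 75th percentile. Probes well above background on at least 3 of 23 arrays were kept, with the brightest per gene (31941 probes, 23708 features, 15465 with a symbol from RefSeq). limma 3.58.1 in R 4.3.3 fitted 6 group means to 23 arrays with an intensity trend, Benjamini-Hochberg adjusted, and was tested on simulated data. The 75th percentile signal of the 8 arrays ranged from 313.9 to 656.0, and 50.3 to 55.3% of spots were well above background; 4 arrays per group limit the precision. Named genes were the 10 with the smallest p in each direction (well above background on all 4 arrays of at least 1 group), 3 per pathway list, 2 per marker list, a fixed set and the 5 largest non-overlapping differences each way (well above background on all 8 arrays); Tnnc1, Tnnt1, Myh7b, Myl2, Atp2a2, Sln, Tpm3, Slc27a1, Plin4, Pparg, Sdhc, Ndufb5, Cox8a, Sirt3, Lipe, Pnpla2, Dlat, Epas1 and Nr4a1 were added after their values were seen. Nr4a3, in the fixed set of genes, was not among the features tested, and some named genes are not reported here. Alternatives covered background, scaling, filters, samples, weights, covariates and left-out arrays.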

Additional observations from a re-analysis of the deposited data

Results flagged for a closer look

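Values of the genes and list scores named in the report were checked in both groups of 4 for an array far from the other 3, in 320 groups; chance flags about 5%, and 20 were found. Among HIIT arrays, HIIT 1 was low for Sln (2.17, others 5.30 to 5.87) and Tpm3 (4.77, others 5.46 to 5.54). HIIT 3 was high for Pparg (2.54, others 1.09 to 1.31), Lep (-0.58, others -3.40 to -3.17) and Nccrp1 (1.13, others -2.78 to -2.24), and low for B2m (0.66, others 5.42 to 5.62). HIIT 4 was high for Pdha1 (6.18, others 5.84 to 5.89) and Sirt3 (3.95, others 3.54 to 3.58). HIIT 2 was low for Ovgp1 (-0.37, others -0.04 to -0.02) and for the circadian clock score (-0.46, others -0.01 to 0.01).

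Among sedentary arrays, sedentary 3 was low for Plin5 (3.08, others 3.85 to 3.92), Sdhd (4.97, others 7.04 to 7.32), Mb, myoglobin (8.17, others 9.10 to 9.22), and Tmem53 (-0.008, others 1.499 to 1.74); Sdhd, Mb and Tmem53 lie in its low rectangle. Sedentary 2 was high for Gbe1 (5.00, others 4.50 to 4.57) and Nedd9 (-0.76, others -1.62 to -1.495), and low for Adipoq (1.19, others 2.07 to 2.17). Its scores were high for muscle growth and myokine signals (0.18, others -0.07 to -0.03), antioxidant and stress proteins (0.07, others -0.004 to 0.002) and bone and cartilage markers (0.39, others -0.15 to -0.10).

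The response to HIIT differed between adult and old mice for 1 probe, to an unnamed interval on chromosome 4 (adjusted p 0.0495 by limma).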

How the results depend on the processing

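The 4 arrays per group limit every result. The count of 0 genes called in adult HIIT against adult sedentary held under each setting tried except array weights (243), including 0 in each of the 8 fits that left out 1 array, where 641 to 2005 features had an unadjusted p under 0.05. Left out together, HIIT 3 and 4 gave 0 calls and HIIT 3 with sedentary 2 gave 0. For HIIT against MICT, array weights gave 3019 calls and other settings 0, with 0 in each of the 7 leave-one-out fits. The adult minus old count of 1 became 0 with normexp background, quantile normalization, no filter, all probes, covariates or only the arrays compared, 2 with the strict filter or without an intensity trend, 8 in the deposited table, 30 with array weights, and 0 to 3 when 1 array was left out. The replicate block gave 0, 0 and 0 calls; same-numbered arrays correlated at 0.19, 0.11, 0.04 and 0.11, so the numbers were not taken as pairs.

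Signs of small differences turned as follows. Slc2a4 was 0.031 with normexp, 0.003 with quantile normalization, 0.044 in the deposited table and 0.053 with covariates. Myh1 was 0.021 with normexp, 0.05 with quantile normalization and 0.17 with array weights. Array weights gave Egr1 0.076 and Fos 0.32, and the deposited table gave Ucp3 -0.002. With the slow-twitch and adipocyte covariates, which are built from such genes, Tnni1 was -0.06, Tnnc1 -0.34, Tnnt1 -0.45, Myh7 -0.72, Myh7b -0.58, Myl2 -0.17, Atp2a2 -0.069, Sln -0.43, Myh2 -0.03, Fbxo32 0.073 and Trim63 0.37. Without HIIT 3 and 4, B2m was 0.23, Myh4 0.024, Sln -0.056, Trim63 0.11 and Ldha 0.10; without HIIT 3 and sedentary 2, B2m was 0.41, Egr1 0.021, Fos 0.19, Ucp3 -0.13, Ldha 0.009 and Myh1 0.048. Leaving out 1 array gave ranges of -1.43 to 0.23 for B2m, -0.11 to 0.027 for Slc2a4, -0.52 to 0.18 for Egr1, -0.43 to 0.19 for Fos, -0.18 to 0.37 for Ucp3, -0.23 to 0.013 for Trim63, -0.12 to 0.068 for Ldha and -0.18 to 0.14 for Myh1. The fits without HIIT 3 and 4, without HIIT 3 and sedentary 2, and without the sedentary 3 rectangle were chosen after seeing the data. The cause of these shifts was not tested beyond the covariates' own construction. Of 122 genes, 103 kept their sign under every setting run. Many of them were picked by their values on these same arrays, so the count does not measure how well signs hold in general.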
